A study of Mus musculus with 31 samples.

Results

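The cadherin and protocadherin genes were measured in 8 groups of adult female mice on one-colour Agilent arrays. A gene was taken as a member if its symbol was Cdh followed by a digit, without the endothelial gene Cdh5, or began with Pcdh. The mouse gene table lists 92 such genes. The arrays had a probe named for 69 of them, and 67 were measured, that is, had a probe well above background on 3 or more arrays of a group. These 67 genes are part of 30164 features tested, of which 17896 have a gene symbol. Cdh17 and Cdh23 were below that limit. No probe was named for 23 members, which are 7 Pcdha and 16 Pcdhg genes.

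The groups combine strain, brain region and early rearing. The strains were C57BL/6J and DBA2/J. One region was the nucleus accumbens (NAc) of the ventral striatum, and the other was the medial part of the prefrontal cortex (mPFC). In repeated cross-fostering (RCF), whole litters went to a new adoptive dam each day from postnatal day 1 to postnatal day 4, so that pups met 4 adoptive dams. Control litters were picked up on the same days and returned to their own mother. All mice were weaned at day 28 and killed as adults, at most 2 females coming from a cage or litter. The age label is 12 weeks for every sample, while the growth protocol gives a range from 9 to 12 weeks. The series title ties the study to vulnerability to cocaine. The labels say that these are separate animals, but the p-values measure only the spread between the samples deposited.

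Cadherins are membrane proteins that bind cells to each other through calcium-dependent contacts between their extracellular repeats, while catenins link their tails to actin. Type I cadherins include N-cadherin, and type II cadherins are expressed in region-specific and circuit-specific combinations in the forebrain. Clustered protocadherins come from 3 neighbouring arrays of variable exons, Pcdha, Pcdhb and Pcdhg, from which a neuron picks a small set, giving it a surface identity used in self-recognition. Delta protocadherins are non-clustered relatives with roles in axon growth and synapse remodelling.

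Levels below are log2 processed signal minus the 75th percentile of the same array, so 0 is the brightness of that percentile, and a change is a difference of such levels. Each change has the standard error (SE) of the limma fit, and a member is called changed where its Benjamini-Hochberg adjusted p over all 30164 features is under 0.05. Levels of different genes are not compared, because they come from different probes.

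Several samples stood apart. Of 31 scanner files, 29 matched a column of the authors' value table that belongs to another sample, and 27 matched one of another group. Each file was given the sample whose column it matched. In 4 pairs of arrays within a group, the 2 arrays differed by about as much as spots repeated on 1 array do. Each such pair was averaged, which leaves 27 samples. They are 2 control and 4 RCF samples of C57BL/6J NAc, 3 and 4 of C57BL/6J mPFC, 4 and 4 of DBA2/J NAc, and 3 and 3 of DBA2/J mPFC. Each strain and region lay on its own slide, scanned on its own day. A difference between strains or regions therefore cannot be told apart from one between slides, while RCF and control samples shared a slide. In C57BL/6J mPFC, C57BL/6J NAc and DBA2/J mPFC, control arrays lay in slide columns 1 and 2 and RCF arrays in columns 3 and 4. In those sets RCF cannot be told apart from the column on the slide. In DBA2/J NAc the columns were mixed, with control 4 in column 4 and RCF 3 in column 2. In the arrays, 58.6% to 81.9% of probes were well above background.

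Markers went against the labels in 6 samples, called the samples in doubt. A tissue score was taken as the mean level of 12 striatal markers minus that of 11 cortical markers, with the midpoint between regions at 3.46. The C57BL/6J mPFC samples control 3 (4.90) and RCF 1 (5.38) scored above it, and the C57BL/6J NAc samples control 1 and 3 (-0.03) and RCF 1 (0.32) scored below it. On a strain score with its midpoint at 9.11, the DBA2/J samples NAc control 4 (7.26) and mPFC control 1 (5.35) fell on the C57BL/6J side. The last of these also had Xist, which females express, at -6.03, against -0.43 or more in the other 26 samples. The fits were also made without these samples, and the calls of the members described below that were lost in those fits are named.

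Type II cadherins Cdh12 and Cdh10, adhesion proteins of forebrain neurons, were lower in DBA2/J NAc than in DBA2/J mPFC, while the type I cadherin Cdh15 (M-cadherin, known from muscle) and the delta-2 protocadherin Pcdh8 (arcadlin, an activity-regulated synaptic protein) were higher. In DBA2/J, 19 members were higher in NAc and 11 lower. The 30 called members are 44.8% of the 67, and 56.6% of all features were called in the same comparison, 20.1% higher and 36.5% lower. Without the samples in doubt, 18 members were higher and 11 lower, beside 56.7% of all features. The median change of the members was 0.093, against -0.12 for all features. By subfamily, the higher and lower counts were 9 and 1 of 22 Pcdhb genes, 4 and 1 of 5 delta-2 protocadherins, 2 and 3 of 12 type II cadherins, 2 and 0 of 5 type I cadherins, 0 and 2 of 4 delta-1 protocadherins, 1 and 2 of 7 Pcdha genes, and 1 and 2 of 6 Pcdhg genes. The higher and lower counts were 25 and 9 with quantile normalization and 16 and 6 with normexp background correction. Over all 30164 features they were 6057 and 11004 on the processed signal. With quantile normalization these became 7808 and 8960, and with normexp 5567 and 6327.

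The 250 bases before the start of these 4 genes are shown because Cdh10 and Cdh12 changed opposite to Cdh15 and Pcdh8. The sequences are those of RefSeq on build GRCm38.p6, read 5′ to 3′ along the gene. Capitals mark every CANNTG, the E-box core bound by basic helix-loop-helix factors, which reads the same on both strands.
Cdh10, chr15:18820079-18820328, plus strand: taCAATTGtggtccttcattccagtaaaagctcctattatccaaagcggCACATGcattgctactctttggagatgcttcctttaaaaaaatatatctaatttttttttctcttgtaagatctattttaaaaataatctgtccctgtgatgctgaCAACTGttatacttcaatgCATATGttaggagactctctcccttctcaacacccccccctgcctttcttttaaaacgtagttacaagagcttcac
Cdh12, chr15:21111202-21111451, plus strand: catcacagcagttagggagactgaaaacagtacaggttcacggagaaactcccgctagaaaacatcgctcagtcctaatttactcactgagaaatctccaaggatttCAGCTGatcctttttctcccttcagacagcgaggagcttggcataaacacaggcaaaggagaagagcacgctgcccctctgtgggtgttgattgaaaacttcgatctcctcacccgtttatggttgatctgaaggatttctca
Cdh15, chr8:122848124-122848373, plus strand: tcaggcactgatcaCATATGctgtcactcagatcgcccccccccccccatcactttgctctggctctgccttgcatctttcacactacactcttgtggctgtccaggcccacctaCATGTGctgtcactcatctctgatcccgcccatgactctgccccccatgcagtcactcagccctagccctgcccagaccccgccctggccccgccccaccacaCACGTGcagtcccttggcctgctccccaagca
Pcdh8, chr14:79771313-79771562, minus strand: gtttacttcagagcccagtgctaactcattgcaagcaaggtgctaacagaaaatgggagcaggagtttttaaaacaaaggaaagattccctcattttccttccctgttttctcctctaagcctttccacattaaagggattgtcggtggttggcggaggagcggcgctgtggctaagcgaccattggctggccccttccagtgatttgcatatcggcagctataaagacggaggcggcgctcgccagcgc
The window of Cdh10 held 4 CANNTG matches, that of Cdh15 held 3, that of Cdh12 held 1 and that of Pcdh8 held 0. Of 32851 mouse promoters of this length, 66.2% held at least 1 match, with a median of 1. Pcdh8 had 1 TATAAA match, counted on either strand, a motif found in 12.4% of promoters and in none of the other windows here. GC content was 36.8% for Cdh10, 46.8% for Cdh12, 51.2% for Pcdh8 and 62.0% for Cdh15, with a median of 52.4% over all promoters. Cdh10 had 2 CG dinucleotides, Cdh15 had 5, Cdh12 had 7 and Pcdh8 had 11, against a median of 6. These matches describe the letters only, and no binding was measured.

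Cdh12 in DBA2/J ranged from -1.79 to -0.08 in NAc (median -1.33, n = 8) and from 0.15 to 0.84 in mPFC (median 0.49, n = 6). The groups did not overlap. The difference was -1.68 (SE 0.31, limma adjusted p = 0.000114), a 3.21-fold lower signal in NAc.

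Cdh10 in DBA2/J ranged from -0.71 to 0.65 in NAc (median -0.39) and from 0.53 to 1.59 in mPFC (median 1.03). One NAc sample, RCF 4 at 0.65, lay inside the mPFC range, and the same sample had the highest cortical marker level of the 8, at -0.72. The difference was -1.34 (SE 0.26, limma adjusted p = 0.000157), and its relation to the cortical markers was not tested.

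Cdh15 in DBA2/J ran from -0.04 to 0.65 in NAc (median 0.31) and from -1.04 to -0.38 in mPFC (median -0.53). Every NAc sample was above every mPFC sample. It rose by 0.85 (SE 0.25, limma adjusted p = 0.00688), or 1.80-fold.

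Pcdh8 in DBA2/J ran from 2.28 to 2.85 in NAc (median 2.62) and from 1.21 to 2.40 in mPFC (median 1.82), with 1 mPFC sample, control 3, inside the NAc range. It was higher by 0.80 (SE 0.23, limma adjusted p = 0.00492). Cdh24, a type II cadherin, had the largest rise in DBA2/J NAc, 0.93 (SE 0.31, adjusted p = 0.0137), but was well above background on only 6 of 8 NAc and 5 of 8 mPFC arrays. Its ranges overlapped, from -6.21 to -4.59 (median -5.25) in NAc and from -7.04 to -5.33 (median -6.16) in mPFC, and it was not called without the samples in doubt (0.78, adjusted p = 0.0601) or with normexp (0.37).

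In the C57BL/6J samples the same 4 genes did not pass the test as labelled, and passed it without the samples in doubt. Cdh12 changed by -0.56 (SE 0.34, limma adjusted p = 0.294) with all samples and by -1.46 (SE 0.29, adjusted p = 0.0014) without them. Cdh10 changed by -0.50 (adjusted p = 0.253) and by -1.17 (adjusted p = 0.00411). Cdh15 changed by 0.45 (adjusted p = 0.299) and by 1.22 (adjusted p = 4.93e-05). Pcdh8 changed by 0.27 (adjusted p = 0.495) and by 0.88 (adjusted p = 0.0078). The signs were those of the DBA2/J comparison for all 4 genes.

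The values of Cdh12 in single C57BL/6J samples show where the spread lies. In NAc, RCF 1 was at 0.45 and control 1 and 3 at 0.68, while the other NAc samples were at -1.11, -1.01, -1.56 and -1.27. In mPFC, RCF 1 was at -0.83 and control 3 at -0.19, while the others were at 0.33, 0.10, -0.09, 0.39 and 0.21. The NAc samples with high Cdh12 were those with cortical marker levels, and the lowest mPFC samples were those with striatal marker levels.

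Cdh15 had the opposite pattern in the same samples. In C57BL/6J NAc, RCF 1 was at -1.02 and control 1 and 3 at -1.06, and the others ran from -0.08 to 0.53. In C57BL/6J mPFC, RCF 1 was at 0.07 and control 3 at 0.14, and the others ran from -1.39 to -0.80.

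**Figure D1:**
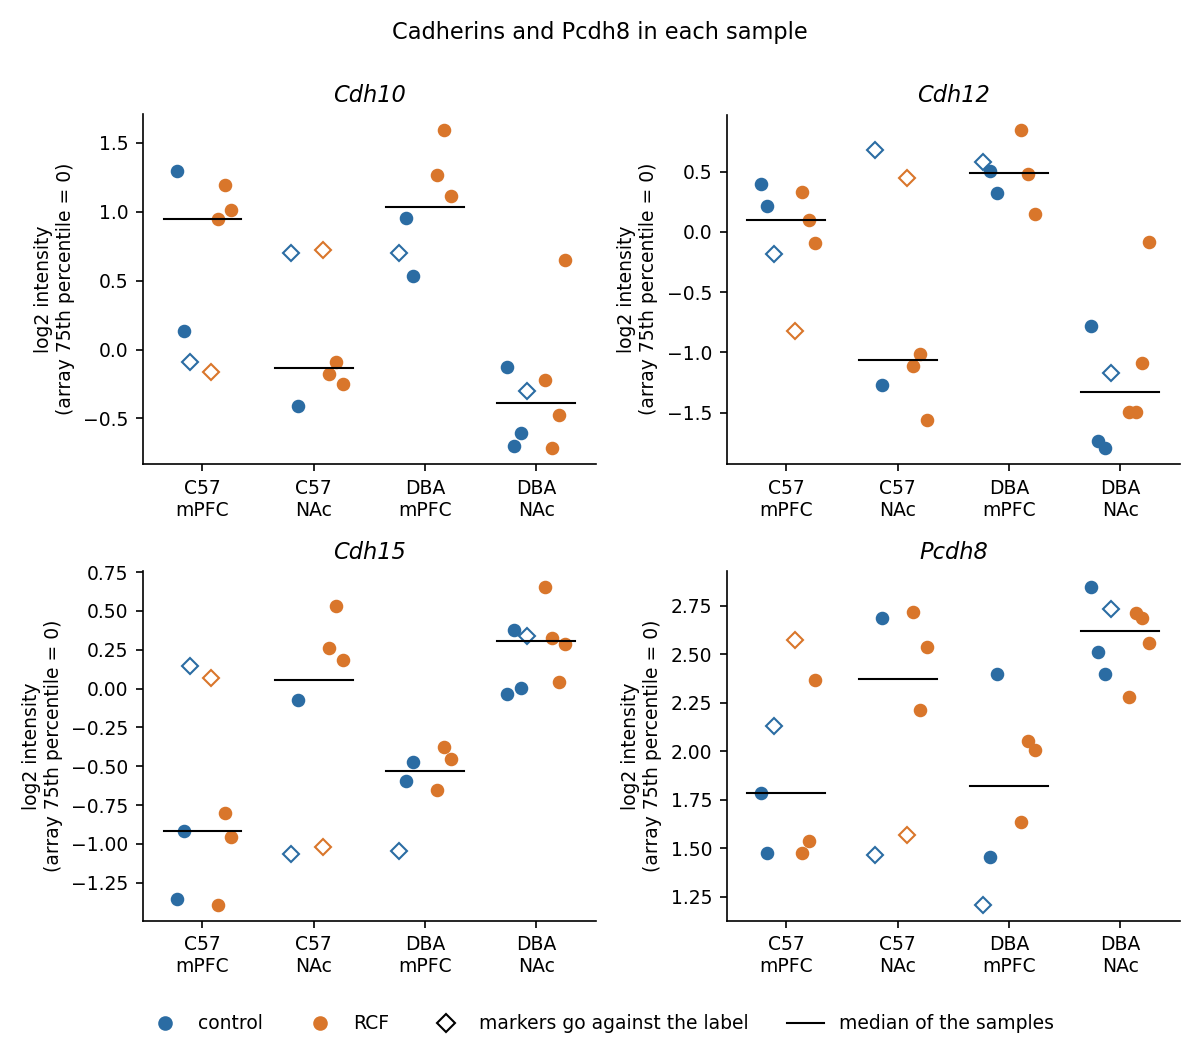
Level of Cdh10, Cdh12, Cdh15 and Pcdh8 in each sample, as log2 processed signal minus the array's 75th percentile, by strain and region; filled circles are control (blue) and RCF (orange) samples, open diamonds the samples whose markers go against the label, and black lines medians. For Cdh12, the C57BL/6J diamonds in NAc, at 0.45 and 0.68, lie on the side of mPFC. Of those in mPFC, RCF 1 at -0.83 lies nearer NAc, and control 3 at -0.19 nearer its own region.

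With all samples, 5 members were higher and 4 lower in C57BL/6J NAc than in C57BL/6J mPFC, or 13.4% of 67, beside 9.57% of all features, of which 3.85% were higher and 5.72% lower. Without the samples in doubt, 9 members were higher and 9 lower, beside 25.5% of all features. The type II cadherins went from 0 called to 2 higher and 5 lower. With normexp the split was 1 higher and 3 lower, and with quantile normalization 4 and 4. Over all features it was 1162 and 1725 on the processed signal, 454 and 1049 with normexp, and 1178 and 1513 with quantile normalization. Leaving out 1 sample, C57BL/6J mPFC control 1, C57BL/6J mPFC RCF 3 or C57BL/6J NAc control 2 and 4, gave 5, 5 and 4 called members.

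Pcdhb15 and Pcdhb19, adhesion proteins of the Pcdhb cluster, were the clearest rises in C57BL/6J NAc. Pcdhb15 ran from -1.37 to -0.65 in NAc (median -1.08, n = 6) and from -2.06 to -1.65 in mPFC (median -1.73, n = 7), with no overlap. The change was 0.78 (SE 0.13, limma adjusted p = 0.00106), and 0.57 (SE 0.12, adjusted p = 0.000435) in DBA2/J. Unlike for Cdh12, the C57BL/6J samples in doubt lay nearer the other samples of their labelled region for Pcdhb15. They were at -0.65 (control 1 and 3) and -1.12 (RCF 1) in NAc, and at -1.72 (RCF 1) and -1.65 (control 3) in mPFC.

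Pcdhb19 ran from -4.34 to -3.37 in NAc (median -3.68) and from -4.70 to -4.20 in mPFC (median -4.55) of C57BL/6J, and these ranges overlapped. Its change was 0.76 (SE 0.16, limma adjusted p = 0.00431). The samples in doubt again lay nearer their labelled region. They were at -3.37 (control 1 and 3) and -3.94 (RCF 1) in NAc, and at -4.55 (RCF 1) and -4.22 (control 3) in mPFC. Pcdhga1, a Pcdhg cluster member, rose by 0.90 (SE 0.28, adjusted p = 0.0431), from a median of -4.71 in mPFC to -3.81 in NAc, and was not called in 13 of the 27 fits that left out 1 sample (adjusted p up to 0.147). Pcdhb5 rose by 0.66 (adjusted p = 0.0328), but was -0.098 with normexp and was not called without the samples in doubt (0.60, adjusted p = 0.0895) or in 6 of those 27 fits.

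The 4 members that fell in C57BL/6J NAc were Pcdh12, Pcdhac2, Pcdhb21 and Cdh2. Pcdhac2, the last variable exon of the Pcdha cluster and one of its constitutively used isoforms, ran from 2.57 to 3.73 in NAc (median 2.69) and from 3.34 to 4.07 in mPFC (median 3.89). The highest NAc values, 3.73 and 3.40, and the lowest mPFC values, 3.34 and 3.35, belonged to the 4 C57BL/6J samples in doubt. Its change of -0.78 (SE 0.19, limma adjusted p = 0.0133) became -1.35 (SE 0.15, adjusted p = 7.16e-06) without them. Without C57BL/6J NAc control 2 and 4 it was -0.49 (adjusted p = 0.158) and not called.

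In DBA2/J, Pcdhac2 fell by 0.93 (SE 0.18, limma adjusted p = 0.000166), from a median of 3.74 in mPFC to 2.66 in NAc, without overlap. Its bright probe may read exons shared by all Pcdha transcripts, so the isoform is uncertain. Pcdh12, which endothelial cells also express, fell by 1.04 in C57BL/6J NAc (SE 0.29, adjusted p = 0.0263), between medians of -4.25 in mPFC and -5.33 in NAc, and was well above background on 4 of 8 NAc arrays. It was not called without C57BL/6J NAc control 2 and 4 (-0.75, adjusted p = 0.204) or without C57BL/6J mPFC control 1 (-1.01, adjusted p = 0.0545).

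Pcdhb21 fell by 0.46 in C57BL/6J NAc (SE 0.10, limma adjusted p = 0.00761), with medians of 1.45 in NAc and 1.78 in mPFC. For Pcdhb21 too, the samples in doubt lay nearer their labelled region. They were at 1.05 (control 1 and 3) and 1.61 (RCF 1) in NAc, and at 1.70 (RCF 1) and 1.78 (control 3) in mPFC. Cdh2, which encodes N-cadherin, fell by 0.33 (SE 0.10, adjusted p = 0.0366), with medians of 3.59 and 3.77. Cdh2 was not called without the samples in doubt (-0.24, adjusted p = 0.147) or in 5 of the 27 fits that left out 1 sample (adjusted p up to 0.164).

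Among the other members called in DBA2/J, the delta-2 protocadherins Pcdh17, Pcdh18 and Pcdh19 were higher in NAc by 0.56 (SE 0.20), 0.68 (SE 0.17) and 0.48 (SE 0.14). Pcdh10 of the same subfamily was lower by 0.65 (SE 0.15, limma adjusted p = 0.000851). The delta-1 protocadherins Pcdh7 and Pcdh1 were lower, at -0.72 (SE 0.24) and -0.42 (SE 0.09). Pcdhb14 rose by 0.73 (SE 0.12, adjusted p = 3.08e-05), from -0.08 to 0.75 between medians, and overlapped in no sample. Cdh8, a type II cadherin of striatal and cortical neurons, was higher by 0.56 (SE 0.16), and Cdh11, another, was lower by 0.45 (SE 0.16).

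Called members of both strains were few as labelled. The 4 members called in both, Pcdhac2, Pcdhb15, Pcdhb16 and Pcdhb19, had the same sign and are 44.4% of the 9 in C57BL/6J and 13.3% of the 30 in DBA2/J. For all features these shares were 49.2% and 8.32%. Pcdhb19 was not called in DBA2/J without the samples in doubt (0.40, limma adjusted p = 0.0576).

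**Figure D2:**
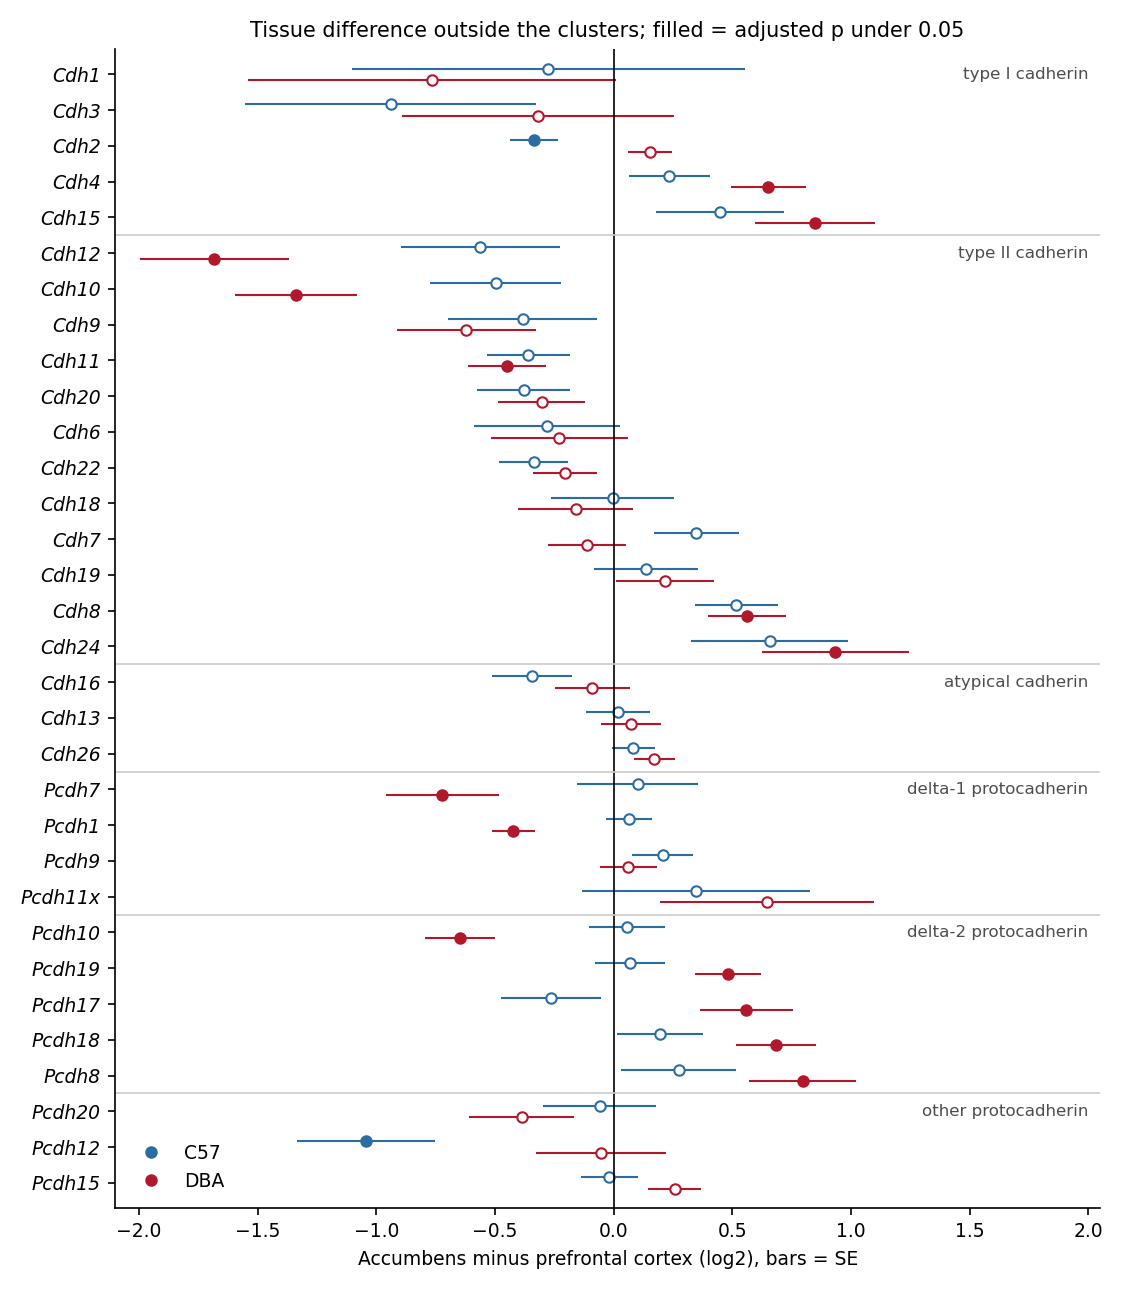
Change between regions (NAc minus mPFC, log2) of the 32 cadherins and non-clustered protocadherins, C57BL/6J against DBA2/J, with bars of 1 SE. Cdh12 and Cdh10 sit lowest in DBA2/J, at -1.68 and -1.34, and nearer 0 in C57BL/6J as labelled, at -0.56 and -0.50.

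These are bulk samples, in which fewer cells of a type and less RNA per cell cannot be told apart. Between DBA2/J regions, all 12 striatal markers were higher in NAc, 10 of 11 cortical markers were lower, 6 of 9 oligodendrocyte markers were higher and 1 lower, and 5 of 6 markers of the septum and ventral forebrain were higher. The mean level of the striatal list ran from 2.34 to 4.59 in DBA2/J NAc and from 0.63 to 2.75 in DBA2/J mPFC. The cortical list ran from -3.94 to -0.72 and from 0.93 to 1.39. The mPFC values of 2.75 and 0.93 were those of control 1, a sample in doubt. The other DBA2/J mPFC samples ran from 0.63 to 0.83 on the striatal list and from 1.15 to 1.39 on the cortical list. The defining markers of both lists were well above background on at least 27 of 31 arrays. In C57BL/6J, 0 striatal markers were called as labelled and 11 without the samples in doubt. The part of these cell types in the region differences of the members was not tested.

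In NAc, 11 of the 22 measured genes of the Pcdhb array were called higher in DBA2/J than in C57BL/6J and 1 lower, beside 12.7% and 19.1% of all features, with 10 and 0 under normexp and 11 and 1 under quantile normalization. In mPFC the count depended on the background correction. There, 10 Pcdhb genes were higher and 3 lower on the processed signal, beside 29.0% and 19.1% of all features, 3 and 3 under normexp, and 5 and 4 under quantile normalization. Without the samples in doubt the counts were 7 and 0 in NAc and 8 and 2 in mPFC. Over all features, normexp gave 2526 higher and 3108 lower in NAc, and 3604 and 5892 in mPFC. With quantile normalization these were 5127 and 5024, and 7239 and 6225. Without the samples in doubt they were 2716 and 4338, and 8259 and 5012. Of 7 Pcdha genes, 2 were higher in NAc and 4 in mPFC, with 0 lower. Of 6 Pcdhg genes, 0 were called in NAc and 2 were higher in mPFC. In mPFC the Pcdha counts moved to 1 higher and 1 lower with normexp, 3 and 0 with quantile normalization, and 4 and 1 without the samples in doubt, where Pcdha9 was lower (-0.40, adjusted p = 0.0259). The Pcdhg genes called in mPFC numbered 0 with normexp, and 1 with quantile normalization or without the samples in doubt, where Pcdhgb1 was not called (0.58, adjusted p = 0.183).

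Over all 67 members, 16 were higher and 4 lower in DBA2/J NAc, or 29.9%, beside 31.8% of all features, and 21 were higher and 7 lower in DBA2/J mPFC, or 41.8%, beside 48.0%. The mPFC split moved to 8 higher and 9 lower with normexp, 13 and 10 with quantile normalization, 14 and 5 on the authors' values, and 24 and 13 with array weights. The authors' table holds almost only probes well above background on every array, so its counts are over fewer members. Over all features the mPFC split moved from 8736 and 5752 to 3604 and 5892 with normexp, and to 7239 and 6225 with quantile normalization. The median of all features in this comparison moved as well, from 0.072 to -0.12 with normexp. Without C57BL/6J NAc control 1 and 3, the NAc count fell from 20 to 12 called members, and without all samples in doubt it was 12 higher and 1 lower, beside 23.4% of all features. The mPFC counts without them were 19 and 6, beside 44.0% of all features. Among the members not described singly below, Cdh4, Pcdhb1 and Pcdhb19 lost their mPFC call without these samples, and Cdh2, Pcdhb7, Pcdhb10 and Pcdhb21 their NAc call.

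Pcdhb2, the second gene of the array, had the largest strain difference in NAc. It ran from -4.92 to -4.02 in C57BL/6J NAc (median -4.42, n = 6) and from -3.92 to -1.98 in DBA2/J NAc (median -2.23, n = 8). The lowest DBA2/J sample, at -3.92, was control 4, which carries C57BL/6J strain markers, and the other 7 ran from -2.49 to -1.98. The change was 2.18 (SE 0.35, limma adjusted p = 6.34e-05), or 4.53-fold, and 2.35 (SE 0.15) without the samples in doubt.

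In mPFC, Pcdhb2 ran from -5.01 to -4.32 in C57BL/6J (median -4.53, n = 7) and from -5.25 to -2.26 in DBA2/J (median -2.56, n = 6). The value of -5.25 was that of control 1, the other DBA2/J sample with C57BL/6J strain markers, and the other 5 ran from -2.68 to -2.26. The change was 1.62 (SE 0.35, limma adjusted p = 0.000639), and 2.01 (SE 0.14, adjusted p = 7.58e-09) without the samples in doubt. With normexp it was 0.57 and not called, and with quantile normalization 1.37 and called.

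Pcdhb3, its neighbour and a brighter probe, gave nearly the same change in both regions and under each scaling. In NAc it ran from -1.40 to -0.73 in C57BL/6J (median -0.98) and from -1.05 to 0.09 in DBA2/J (median -0.29). In mPFC the ranges were -1.43 to -0.84 (median -1.15) and -1.26 to 0.07 (median -0.17). The only DBA2/J samples inside the C57BL/6J ranges were NAc control 4 and mPFC control 1. The changes were 0.80 (SE 0.16, limma adjusted p = 0.000613) and 0.85 (SE 0.16, adjusted p = 0.000178), and 0.71 and 0.69 with normexp.

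Pcdhb5 ran from -5.30 to -4.35 in C57BL/6J NAc (median -4.52) and from -4.05 to -3.26 in DBA2/J NAc (median -3.51). In mPFC it ran from -5.96 to -4.80 (median -5.48) and from -4.22 to -3.39 (median -3.59). Neither pair of ranges overlapped. The DBA2/J samples with C57BL/6J strain markers were at -3.77 and -4.22, above every C57BL/6J sample of their region. The changes were 1.25 (SE 0.19, limma adjusted p = 2.9e-05) in NAc and 1.77 (SE 0.19, adjusted p = 2.66e-07) in mPFC. Pcdhb5 was well above background on 6 of 8 C57BL/6J NAc arrays and 4 of 7 C57BL/6J mPFC arrays. With normexp the changes shrank to 0.54, still called, and 0.20, not called.

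Pcdha4, a variable isoform of the Pcdha cluster, ran from -2.53 to -2.04 in C57BL/6J NAc (median -2.24) and from -2.16 to -0.92 in DBA2/J NAc (median -1.22). The DBA2/J sample at -2.16 was again control 4. The change was 1.00 (SE 0.19, limma adjusted p = 0.000384), and 1.21 (SE 0.13, adjusted p = 2.81e-06) without the samples in doubt. In mPFC, where control 1 was at -2.71, it was 0.53 (SE 0.19, adjusted p = 0.0256), and 0.75 without the samples in doubt.

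**Figure D3:**
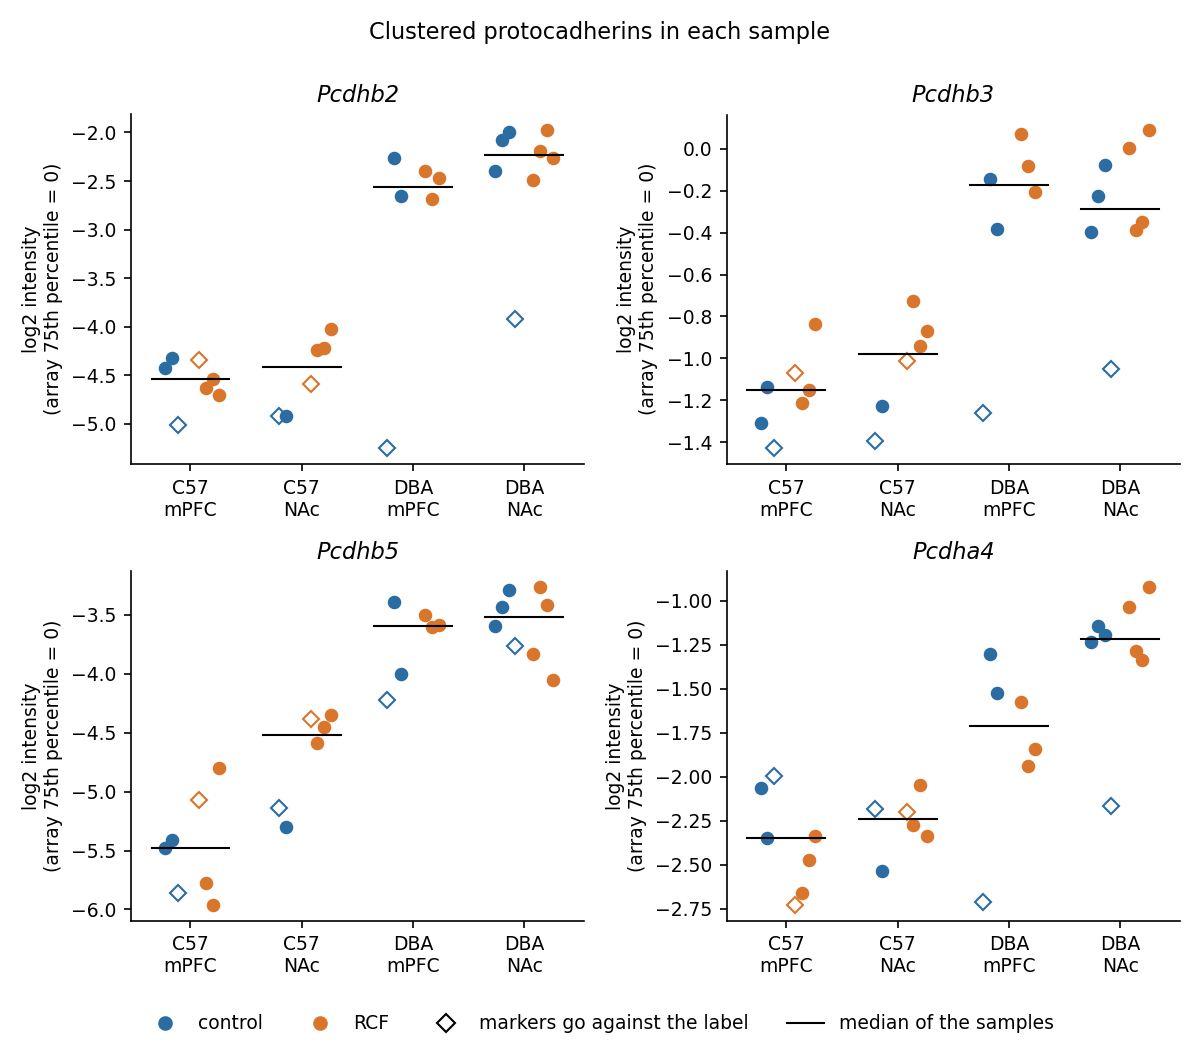
Level of Pcdhb2, Pcdhb3, Pcdhb5 and Pcdha4 in each sample, as log2 processed signal minus the array's 75th percentile, by strain and region; circles, diamonds and lines mark control and RCF samples, samples whose markers go against the label, and medians. The DBA2/J diamonds of Pcdhb2, at -3.92 in NAc and -5.25 in mPFC, lie apart from the other DBA2/J samples, while those of Pcdhb5 do not.

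Pcdhb11 rose by 1.00 in NAc (SE 0.25, limma adjusted p = 0.00388), where it ran from -5.02 to -4.03 in C57BL/6J (median -4.47) and from -4.25 to -2.19 in DBA2/J (median -3.62). It rose by 0.91 in mPFC (SE 0.25), a change of -0.051 with normexp. Pcdhb9 rose by 0.91 in mPFC (SE 0.15, adjusted p = 2.97e-05), with C57BL/6J between -3.86 and -3.26 (median -3.73) and DBA2/J between -2.87 and -2.58 (median -2.72), and by 0.55 in NAc (SE 0.15), which was 0.38 (adjusted p = 0.150) and not called without the samples in doubt. The mPFC ranges of Pcdhb9 did not overlap, and both of its changes were called with normexp, at 0.34 and 0.35. DBA2/J mPFC control 1, which carries C57BL/6J strain markers, was at -2.63 for Pcdhb9, on the DBA2/J side. It lay nearer the C57BL/6J median for 15 of the 25 members called in mPFC without the samples in doubt. That is 60.0%, beside 30.8% of all features called.

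The strain change varied along the Pcdhb array. Of the 11 genes in places 1 to 11, 8 were higher and 0 lower in mPFC, with a median change of 0.85, and 9 were higher and 0 lower in NAc, with a median of 0.55. Of the 11 genes in places 12 to 22, 2 were higher and 3 lower in mPFC, with a median of -0.070, and 2 were higher and 1 lower in NAc, with a median of 0.15. With normexp the counts for the first 11 places were 3 and 0 in mPFC and 8 and 0 in NAc, and for the last 11 places 0 and 3, and 2 and 0. With quantile normalization they were 5 and 0, 9 and 0, 0 and 4, and 2 and 1. Without the samples in doubt the first 11 places gave 7 and 6 higher and 0 lower, and the last 11 gave 1 and 1 higher and 2 and 0 lower. The division at place 11 was made after the values were seen and is given as a description, with no test.

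**Figure D4:**
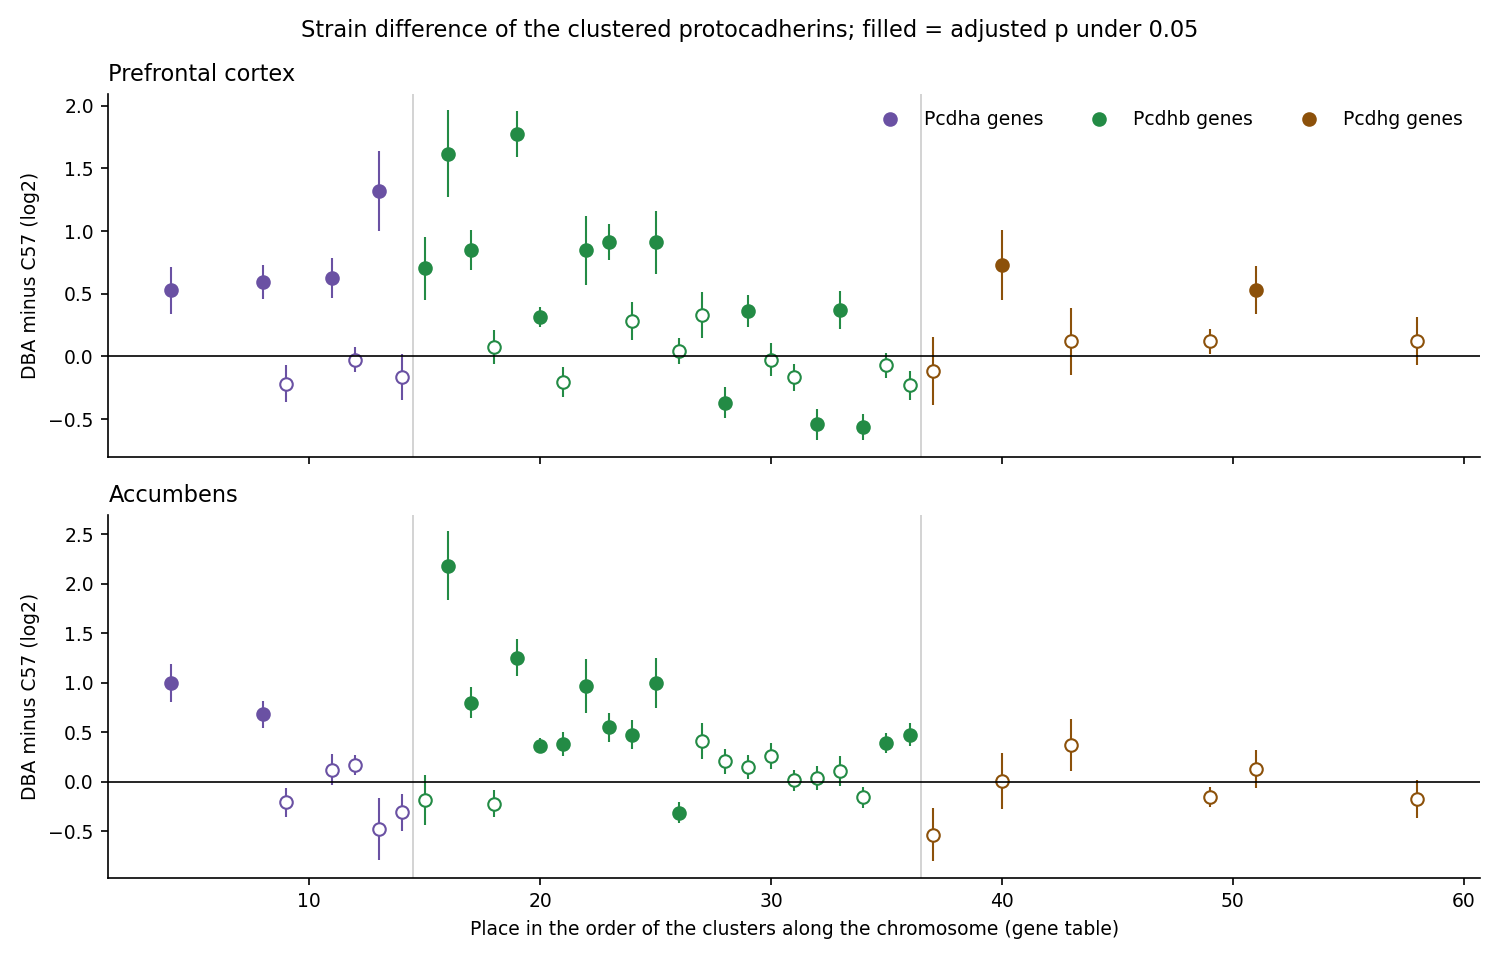
Strain change (DBA2/J minus C57BL/6J, log2) with 1 SE for the measured clustered protocadherins in their order on the chromosome, in mPFC and NAc. The changes of Pcdhb2 and Pcdhb5, 1.62 and 1.77 in mPFC, stand among the first 11 Pcdhb places, and the median over places 12 to 22 is -0.070 in mPFC.

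The Pcdhb members that fell in DBA2/J lay in the later places. In mPFC, Pcdhb20 fell by 0.56 (SE 0.10, limma adjusted p = 0.00015), from a median of 1.26 in C57BL/6J to 0.68 in DBA2/J. Its ranges, 1.00 to 1.36 and 0.54 to 0.79, did not overlap. Control 1, the DBA2/J mPFC sample with C57BL/6J strain markers, was at 0.69, on the DBA2/J side. It was on that side for Pcdhb18 too, at -1.55. Pcdhb18 fell by 0.54 (SE 0.13, adjusted p = 0.00121), from -0.95 to -1.46 between medians, and Pcdhb14 by 0.37 (SE 0.13), which was not called without the samples in doubt (-0.23, adjusted p = 0.158). In NAc only Pcdhb12 fell, by 0.31 (SE 0.10, adjusted p = 0.0269), with ranges of -0.85 to -0.67 (median -0.70) in C57BL/6J and -1.32 to -0.84 (median -0.98) in DBA2/J that overlapped. Pcdhb12 was not called without the samples in doubt (-0.33, adjusted p = 0.0536), and in 3 of the 27 fits that left out 1 sample (adjusted p up to 0.0866).

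Pcdha8 rose by 0.59 in mPFC (SE 0.14, limma adjusted p = 0.00118) and by 0.68 in NAc (SE 0.14, adjusted p = 0.000649), and by 0.75 and 0.66 with normexp. The probe of Pcdha8, like that of Pcdhac2, may read shared Pcdha exons. Pcdhac1, another isoform at the end of the Pcdha cluster, rose by 1.32 in mPFC (SE 0.32, adjusted p = 0.00159), but was well above background on 3 of 7 C57BL/6J arrays and changed by 0.053 with normexp. Pcdhac1 ran from -6.76 to -5.19 in C57BL/6J mPFC (median -5.65) and from -4.57 to -4.03 in DBA2/J mPFC (median -4.38). Control 1, with C57BL/6J strain markers, was at -4.52, on the DBA2/J side.

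Outside the clusters, 5 members were higher and 4 lower of 32 in mPFC, beside 29.0% and 19.1% of all features. In NAc the counts were 3 and 3 of 32, beside 12.7% and 19.1%. Cdh26, an atypical cadherin known from epithelia, was lower in DBA2/J in both regions. In mPFC it ran from 1.31 to 1.66 in C57BL/6J (median 1.53) and from 0.87 to 0.96 in DBA2/J (median 0.93). These ranges did not overlap. The change was -0.61 (SE 0.09, limma adjusted p = 1.03e-05), and -0.63 with normexp.

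In NAc, Cdh26 ran from 1.30 to 1.97 in C57BL/6J (median 1.5) and from 0.68 to 1.30 in DBA2/J (median 1.13), and fell by 0.52 (SE 0.09, limma adjusted p = 0.000124). These ranges just overlapped. The DBA2/J samples with C57BL/6J strain markers were at 0.68 and 0.92, within or below the other DBA2/J values. They were thus on the DBA2/J side for Cdh26 and on the C57BL/6J side for Pcdhb2, Pcdhb3 and Pcdha4.

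Cdh3, or P-cadherin, a type I cadherin, had the largest fall in mPFC, from a median of -4.57 in C57BL/6J (range -6.81 to -2.81) to -7.12 in DBA2/J (range -8.29 to -5.58). The change was -2.42 (SE 0.59, limma adjusted p = 0.0019), -3.21 without the samples in doubt and -0.89 with normexp, each of them called. It was well above background on 6 of 7 C57BL/6J and 4 of 8 DBA2/J arrays there.

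In NAc, Cdh3 was well above background on 0 of 8 DBA2/J arrays and 3 of 8 C57BL/6J arrays. It was called lower in DBA2/J (limma adjusted p = 0.0236), but with so few arrays above background the size of the fall is not known. The highest C57BL/6J NAc values, -3.44 and -4.19, were those of control 1 and 3 and RCF 1, the samples with cortical markers, and the other 4 ran from -7.09 to -6.33. The change was -0.70 (SE 0.52, adjusted p = 0.365) and not called without the samples in doubt. It was also not called without control 1 and 3 alone (-1.02, adjusted p = 0.300) or without RCF 1 alone (-1.49, adjusted p = 0.0514).

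Among the type II cadherins, Cdh7, Cdh8 and Cdh18 were higher in DBA2/J mPFC, by 0.75 (SE 0.17), 0.46 (SE 0.17) and 0.67 (SE 0.25). Cdh7 and Cdh8 were called with normexp too, and Cdh18 was not. Cdh8 was also higher in NAc, by 0.51 (SE 0.17, limma adjusted p = 0.0257), and was not called there without the samples in doubt (0.48, adjusted p = 0.0871). Cdh13 (T-cadherin, which has a lipid anchor in place of a tail) was higher by 0.42 (SE 0.13) in mPFC and 0.47 (SE 0.13) in NAc. Pcdh1 was lower in DBA2/J NAc by 0.29 (SE 0.09, adjusted p = 0.0214), with medians of 0.25 in C57BL/6J and -0.02 in DBA2/J and ranges that overlapped, and was not called without the samples in doubt (-0.26, adjusted p = 0.149) or without C57BL/6J NAc control 1 and 3 alone (-0.27, adjusted p = 0.101).

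In all, 13 members were called between strains in both regions, all 13 with the same sign, which is 46.4% of the 28 in mPFC and 65.0% of the 20 in NAc. For all features these shares were 28.3% and 42.8%. The 13 were Pcdha4, Pcdha8, Pcdhb2, Pcdhb3, Pcdhb5, Pcdhb6, Pcdhb8, Pcdhb9, Pcdhb11, Cdh8 and Cdh13, higher in DBA2/J, and Cdh3 and Cdh26, lower. Of the 13, 9 were called in both regions without the samples in doubt. Cdh3, Cdh8 and Pcdhb9 lost the call in NAc, and Pcdhb8 lost it in mPFC (0.60, limma adjusted p = 0.120).

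Cell-type markers also differed between strains in mPFC, where 4 of 12 striatal and 4 of 9 oligodendrocyte markers were lower in DBA2/J and 2 of 11 cortical markers were higher. In NAc, 1 of 9 oligodendrocyte markers was lower, and 0 striatal and 0 cortical markers were called. The striatal list ran from 0.95 to 4.53 in C57BL/6J mPFC and from 1.11 to 4.67 in C57BL/6J NAc, against the DBA2/J ranges given above. The oligodendrocyte list ran from 2.34 to 3.23 in C57BL/6J mPFC and from 1.48 to 3.23 in DBA2/J mPFC. Samples in doubt set several of these ends. Without them, the striatal list ran from 0.95 to 2.31 in C57BL/6J mPFC and from 0.63 to 0.83 in DBA2/J mPFC. In C57BL/6J NAc it ran from 3.97 to 4.67. The oligodendrocyte list then ran from 2.34 to 2.74 in C57BL/6J mPFC and from 1.48 to 2.14 in DBA2/J mPFC. Neither pair of these mPFC ranges overlapped. The part of these cell types in the strain differences was not tested, nor was the match of the probes to DBA2/J sequence.

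The region difference depended on strain for 11 members, 8 with a positive and 3 with a negative interaction, or 16.4%, beside 31.3% of all features, of which 9.83% were positive and 21.4% negative. The interaction is the NAc minus mPFC change in DBA2/J minus that in C57BL/6J. Without the samples in doubt, 3 were positive and 4 negative, beside 18.7% of all features. Leaving out C57BL/6J NAc control 1 and 3 alone gave 6 members.

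Pcdhac1 had the largest interaction, -1.80 (SE 0.45, limma adjusted p = 0.00428). Its medians were -4.38 in DBA2/J mPFC, -5.29 in DBA2/J NAc, -5.65 in C57BL/6J mPFC and -4.96 in C57BL/6J NAc. The DBA2/J mPFC range stood above the range of DBA2/J NAc and of C57BL/6J mPFC. The value was -1.90 without the samples in doubt and -0.057, not called, with normexp.

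Pcdhb22 had an interaction of 0.71 (SE 0.16, limma adjusted p = 0.00263), with medians of -1.78 and -1.36 in C57BL/6J NAc and mPFC, and -1.32 and -1.66 in DBA2/J. It was called with normexp (0.60), with quantile normalization (0.82) and without the samples in doubt (0.54, adjusted p = 0.0478). Pcdh10 had an interaction of -0.70 (SE 0.22, adjusted p = 0.0174), with medians of 3.06 and 3.23 in C57BL/6J and 3.02 and 3.68 in DBA2/J. It was not called without the samples in doubt (-0.55, adjusted p = 0.0805) or without C57BL/6J NAc control 1 and 3 alone (-0.63, adjusted p = 0.0641). Pcdh17 had an interaction of 0.82 (SE 0.29, adjusted p = 0.0342), which was 0.21 (adjusted p = 0.618) without those samples, with medians of 3.81 and 3.92 in C57BL/6J and 3.89 and 3.38 in DBA2/J. Without C57BL/6J NAc control 1 and 3 alone it was 0.51 (adjusted p = 0.203), and it was not called in 9 of the 27 fits that left out 1 sample. Pcdh1 kept its call without them, at -0.51 (adjusted p = 0.0448) beside -0.49 with all samples.

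Repeated cross-fostering gave 0 called members in each of the 4 sets by limma's adjusted p, beside 0.0% of all features in C57BL/6J mPFC, 0.607% in C57BL/6J NAc, 0.0% in DBA2/J mPFC and 0.0% in DBA2/J NAc. Without the samples in doubt, C57BL/6J NAc again had 0 called members, beside 0.0232% of all features. At an unadjusted p under 0.05 the counts were 4, 7, 2 and 3 of 67 members in the same order, or 5.97%, 10.4%, 2.99% and 4.48%, beside 2.46%, 11.1%, 1.58% and 2.02% of all features. The median changes of the members were 0.053, 0.15, 0.043 and 0.020, and single members ranged from -1.78 to 1.40 over the 4 sets. No member was called for an interaction of treatment with strain or region, beside 0.0% of all features. At an unadjusted p under 0.05 there were 1 member for strain in mPFC, 8 for strain in NAc, 3 for region in C57BL/6J and 0 for region in DBA2/J, beside 1.46%, 7.68%, 4.49% and 1.07% of all features. These are 1.49%, 11.9%, 4.48% and 0.0% of the members. A difference not called here is not shown to be absent. Quantile normalization gave 1 call and the near-duplicate arrays kept apart gave 3, both in C57BL/6J NAc. With quantile normalization, 86 of all features were called higher there and 214 lower.

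In C57BL/6J NAc, Cdh24 had the smallest p. It was at -5.89, -5.89, -6.53 and -7.00 in the RCF samples and at -4.43 and -4.67 in the controls. All RCF samples were below both controls, but 0 of 4 RCF arrays and 2 of 4 control arrays were well above background. The fall after RCF was not called (limma adjusted p = 0.120), and its size is not known. Only 2 control samples remain in this group after averaging, and 1 of them, control 1 and 3, has cortical markers.

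Cdh2 in C57BL/6J NAc was at 3.59, 3.59, 3.76 and 3.78 after RCF and at 2.99 and 3.37 in the controls. The RCF values were all higher, and the difference was 0.50 (SE 0.15, limma adjusted p = 0.153). Without control 2 and 4, which leaves 1 control sample assumed to vary like the other groups, it was 0.69 (adjusted p = 0.037) and called. The control that this leaves, control 1 and 3, is the one with cortical markers, and without it the difference was 0.31 (adjusted p = 1.00). Without all samples in doubt it was 0.34 (adjusted p = 1.00). Pcdhb16 was at 0.36, 0.49, 0.63 and 0.76 after RCF and at -0.26 and 0.18 in the controls, also without overlap, a difference of 0.60 (SE 0.20, adjusted p = 0.223) that was 0.38 without control 1 and 3.

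In C57BL/6J mPFC, Pcdha11 was at -3.92, -3.88, -3.80 and -3.63 after RCF and at -3.16, -3.26 and -3.18 in controls. The groups did not overlap, and the difference was -0.61 (SE 0.22, limma adjusted p = 1.00, unadjusted p = 0.0115). Pcdha12 was at -1.29, -1.02, -1.06 and -1.45 after RCF and at -0.70, -0.77 and -1.13 in controls, which overlapped, with a difference of -0.33 (SE 0.14, adjusted p = 1.00). Pcdhga5 was not well above background on any of the 3 control arrays, and was so on only 2 of 4 RCF arrays. The size of its rise after RCF is therefore not known. The rise was not called (adjusted p = 1.00), and the change was -0.074 with normexp.

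In DBA2/J mPFC the low values of Pcdhb3 and Pcdhb2 in control 1 carried their differences. Pcdhb2 was at -2.39, -2.68 and -2.47 after RCF and at -5.25, -2.26 and -2.66 in controls. The difference of 0.87 (SE 0.51, limma adjusted p = 1.00) became -0.055 without control 1, 1.24 without control 3 and 1.44 without control 2 and 4. Pcdhb3 was at 0.07, -0.08 and -0.21 after RCF and at -1.26, -0.14 and -0.38 in controls, a difference of 0.52 that was 0.19 without control 1. Pcdhb6 was at 0.68, 0.68 and 0.78 after RCF and at 0.26, 0.66 and 0.33 in controls, without overlap, a difference of 0.30 (SE 0.11, adjusted p = 1.00).

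In DBA2/J NAc, Pcdh18 was at -0.20, -0.43, 0.21 and -1.26 after RCF and at 0.20, 0.41, 0.14 and 0.12 in controls. One RCF sample lay inside the control range, and the difference was -0.64 (SE 0.22, limma adjusted p = 1.00). Pcdhga10 was at -4.19, -4.02, -4.18 and -5.29 after RCF and at -3.97, -3.78, -3.92 and -3.53 in controls, without overlap, a difference of -0.62 (SE 0.24). RCF 4 was the lowest sample for both genes, and without it the differences of Pcdh18 and Pcdhga10 were -0.36 and -0.33. Pcdh1 was at 0.02, 0.12, -0.15 and 0.44 after RCF and at -0.34, -0.05, 0.02 and -0.30 in controls, with overlap, a difference of 0.28 (SE 0.12) that was 0.17 without RCF 4.

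**Figure D5:**
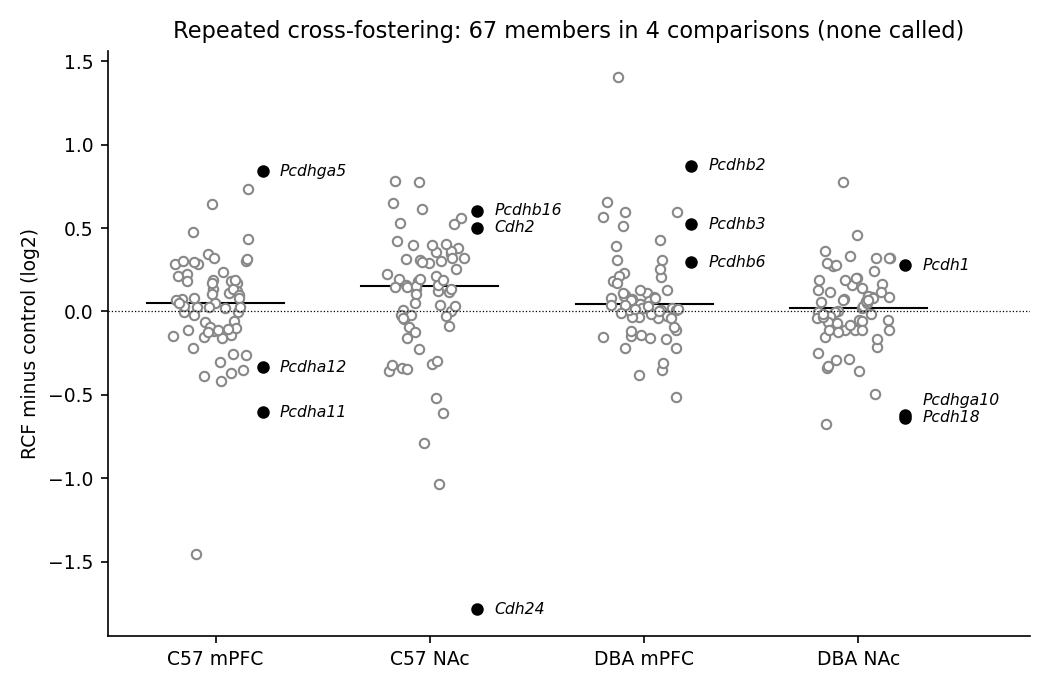
Change after repeated cross-fostering (RCF minus control, log2) of the 67 members in each strain and region; each point is a member, and those with the smallest p are named. The extremes are -1.78, for Cdh24 in C57BL/6J NAc, where RCF arrays were not well above background, and 1.40 in DBA2/J mPFC; no member was called.

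Genes that work with the cadherins were read from 3 lists. The first holds 30 partners (catenins and linked adhesion proteins, 29 measured), the second 28 other members of the cadherin superfamily (21 measured), and the third 16 regulators of clustered protocadherin genes (16 measured). Their region and strain changes are given only from the fit with all samples, the samples in doubt included. Between DBA2/J regions, the higher and lower counts in NAc were 3 and 11 partners, 5 and 8 superfamily genes, and 6 and 2 regulators, beside 20.1% and 36.5% of all features. Pkp1, which encodes plakophilin, a desmosomal plaque protein, fell by 2.30. Nectin3, an adhesion receptor linked to catenins through afadin, fell by 1.43, and the desmosomal cadherin gene Dsc3 rose by 2.45.

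Between C57BL/6J regions the counts in NAc were 2 and 5 partners, 2 and 1 superfamily genes, and 1 and 3 regulators, beside 3.85% and 5.72% of all features. Dsc3 rose by 1.67 and Ctnnd1, which encodes p120-catenin, fell by 0.54. The cohesin loader gene Nipbl rose by 0.75, and Rad21 of cohesin and the insulator gene Ctcf fell by 0.45 and 0.43. Ctcf and cohesin are known to set promoter choice in the clustered protocadherin arrays. A link of these changes to those of the members was not tested.

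Between strains, DBA2/J mPFC had 8 partners higher and 4 lower, 3 superfamily genes higher and 0 lower, and 2 regulators higher and 6 lower, beside 29.0% and 19.1% of all features. Pkp1 rose by 2.25 and Jup, which encodes plakoglobin, by 1.51. Dnmt3b, a DNA methyltransferase known to act on protocadherin promoters, rose by 0.69, and the cohesin gene Stag1 fell by 0.51. In DBA2/J NAc the counts were 0 and 2 partners, 2 and 0 superfamily genes, and 3 and 1 regulators, beside 12.7% and 19.1% of all features. The repressor gene Rest rose by 0.59 and the cohesin release gene Wapl by 0.45.

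After RCF, 2 genes of these lists were called, both in C57BL/6J NAc. This set has only 2 control samples, and leaving out the samples in doubt keeps only control 2 and 4. Its control and RCF arrays also lay in different columns of the slide. Fat2, an atypical cadherin of the Fat family, fell by 1.57 (SE 0.29, limma adjusted p = 0.025), and by 2.13 without the samples in doubt. Pds5a, a cohesin regulator, fell by 0.97 (adjusted p = 0.012), and was not called without the samples in doubt (-0.68, adjusted p = 1.00).

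More than 1 probe passed for 14 members, which gives 56 comparisons. In 0 of them was the brightest probe called with another called in the opposite direction. In 14 the brightest probe was not called and another was, and in 12 the brightest was called and no other.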

How the data were processed

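Whole-genome mouse arrays (Agilent, one colour) measured RNA of the medial prefrontal cortex and nucleus accumbens in 31 samples, from 200 ng of RNA with an integrity number of at least 8.0, per the labels' protocols. The deposited scanner files hold the processed signal, an intensity that Agilent Feature Extraction 10.7.3.1 had corrected for background, per the file headers; the submitters' processing notes name that software and limma. The authors' deposited value table holds log2 values of 30067 probes with a common 75th percentile of 11.43 on every array, and how it was made is not given in the sources used here.

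Each scanner file took the sample of the value-table column it correlated with best (r at least 0.999996, and at most 0.998 with any other column). Of 55681 probes without control spots, 28026 were named through their RefSeq accession. The level was log2 processed signal minus the array's 75th percentile. Probes well above background on 3 or more arrays of a group were kept (43415), and the brightest probe stood for a gene. Arrays whose difference was under 1.5 times the spread of repeated spots (277 repeated probes) were averaged; the ratio was 0.845 to 1.11 in the 4 averaged pairs and 1.79 to 6.07 in the other pairs. limma 3.58.1 (R 4.3.3) fitted 8 group means to 27 samples, with a trended variance and Benjamini-Hochberg adjustment over 30164 features. The fit was tested on simulated data. The files hold no mean signal, so normexp (offset 50) used the median signal and background. The number of arrays limits the precision.

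The members and lists were chosen with earlier results of these data known. Values by sample are given for up to 4 called members with the largest change in each direction in each strain and region comparison, the 4 largest interactions, and the 3 smallest p-values after RCF. Samples were not paired by replicate number. Over 105 same-numbered pairs of arrays from different groups the median correlation of deviations was 0.01 (-0.64 to 0.66), and 25 pairs exceeded 0.1. These pairs also join different strains and different treatments, so the check cannot exclude pairing of the regions within a strain and treatment. Alternatives were normexp, quantile normalization, array weights, the authors' values, the mean of a gene's probes, no filter on dim probes, only the groups compared, near-duplicates apart, a replicate block, the files as listed, each replicate left out, and the samples in doubt left out. Python 3.11.15 with numpy 2.4.6, pandas 2.3.3 and matplotlib 3.10.9 did the rest. Promoters were read from RefSeq windows on GRCm38.p6. Coordinates of the probes were not used.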

Additional observations from a re-analysis of the deposited data

Results flagged for a closer look

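A single sample stood apart from the rest of its group in 10 of 144 tests of a member in a group of 4, where chance gives about 1 in 20. The members tested were those given with values by sample, which were picked for large changes or small p-values in these data. In C57BL/6J NAc RCF 1, which has cortical markers, Cdh10 was at 0.72, Pcdh18 at -0.38 and Pcdhac2 at 3.40. In DBA2/J NAc control 4, which has C57BL/6J strain markers, Pcdha4 was at -2.16, Pcdhb11 at -4.25 and Pcdhb15 at -1.20. In DBA2/J NAc RCF 4, Pcdhb12 was at -1.32 and Pcdhga10 at -5.29. In C57BL/6J mPFC, Pcdh12 was at -2.32 in RCF 3 and Pcdh17 at 3.27 in RCF 2.

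The region difference of 11 members differed between strains by the limma interaction (DBA2/J minus C57BL/6J). It was positive for Pcdh17 (0.82), Pcdhb22 (0.71), Pcdhb7, Pcdhb14 and Pcdhb18 (0.58 each), Cdh2 (0.49), Pcdhb21 (0.46) and Pcdhb20 (0.41). It was negative for Pcdhac1 (-1.80), Pcdh10 (-0.70) and Pcdh1 (-0.49). Of these, Pcdhb22, Pcdhac1 and Pcdh1 were also called without the samples in doubt.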

How the results depend on the processing

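The number of called members kept its size, within 1.5 times, for both strain comparisons and the DBA2/J region comparison under quantile normalization, array weights, the authors' values, the mean of a gene's probes and no filter on dim probes. The counts on the authors' values are over fewer members, since their table holds only 22 of the 36 called changes of named members. With all 6 samples in doubt left out, it was 18 for the C57BL/6J regions (9 with all), 13 for the strains in NAc (20) and 7 for the interaction (11). Normexp gave 4 for the C57BL/6J regions and 17 for the strains in mPFC (28). For the C57BL/6J regions, array weights gave 14 and a fit of only the groups compared gave 4. Quantile normalization gave 1 after RCF in C57BL/6J NAc. With the near-duplicates kept apart, the interaction had 19 members and RCF in C57BL/6J NAc 3; with the replicate number as a block as well, the counts were also 19 and 3. Pairing by replicate number was not established, and the block changed none of the 36 called values.

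Leaving out each replicate gave 4 to 10 called members for the C57BL/6J regions (4 without NAc control 2 and 4, and 5 without mPFC control 1 or RCF 3), 28 to 32 for the DBA2/J regions, 23 to 29 for the strains in mPFC, 12 to 26 in NAc, 6 to 14 for the interaction, 0 to 2 for RCF in C57BL/6J NAc, and 0 elsewhere. The lowest NAc count came without C57BL/6J NAc control 1 and 3. A group left with 1 sample is assumed to vary like the others.

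Of 36 called changes of named members, 33 stayed called with quantile normalization, 28 without the samples in doubt and 23 with normexp, where 12 were no longer called and 1 changed sign. That was Pcdhb5 between C57BL/6J regions, at -0.098. Among changes that were not called, Pcdhga5 after RCF in C57BL/6J mPFC was -0.074 with normexp. Pcdhb2 after RCF in DBA2/J mPFC was -0.055 without the samples in doubt, and ran from -0.055 without control 1 to 1.24 without control 3 and 1.44 without control 2 and 4. The cause of these shifts was not tested. With normexp the median of all features moved from -0.12 to 0.0027 for the DBA2/J regions, from -0.092 to 0.13 for the interaction and from -0.011 to -0.13 for RCF in C57BL/6J NAc.

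With each file given the sample it is listed under, and not the one whose values it matches, 0 members were called for the regions of either strain and for the interaction, 15 for the strains in mPFC, and 10, 22, 13 and 10 after RCF in C57BL/6J mPFC, C57BL/6J NAc, DBA2/J mPFC and DBA2/J NAc, with 7 in the treatment interactions. Changes of sign followed. Between C57BL/6J regions, Pcdhga1 was -0.12, Pcdhb15 -0.061, Pcdhb5 -0.12, Pcdh12 0.39, Pcdhac2 0.029, Pcdhb21 0.071 and Cdh2 0.027. Between DBA2/J regions, Cdh24 was -0.53, Cdh10 0.031 and Pcdhac1 0.33. Between strains, Pcdhac1 was -0.46, Cdh26 0.17, Pcdhb20 0.13 and Pcdhb18 0.15 in mPFC, and Cdh26 0.079 and Pcdhb12 0.014 in NAc. The interactions of Pcdhac1 and Pcdh17 were 0.32 and -0.048. After RCF, Pcdha11 in C57BL/6J mPFC was 0.47, Cdh2 and Pcdhb16 in C57BL/6J NAc were -0.11 and -0.069, and Pcdhga10 and Pcdh1 in DBA2/J NAc were 0.013 and -0.31. Probes near background, such as those of Cdh3, Cdh24 and Pcdhac1, limit the changes given for those genes.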
